A study of Rattus norvegicus with 16 samples.

Results

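The genes of the mitochondrial respiratory chain were followed on expression arrays of rat corneas. The members were taken by symbol: every probe set that the platform annotation gives to a single gene whose symbol starts with Nduf, Uqcr, Atp5, Cox4i, Cox5, Cox6, Cox7 or Cox8, or is *Sdha*, *Sdhb*, *Sdhc*, *Sdhd*, *Cycs* or *Cyc1*. This gave 97 of 31042 probe sets and 87 of 14217 named genes. Of these, 77 encode subunits of the chain: 34 of complex I, 4 of complex II, 8 of complex III, 16 of complex IV and 15 of complex V. The prefixes also took in 10 genes that are not subunits, namely 6 assembly factors of complex I, the ATP synthase inhibitor *Atp5if1*, the *Ndufa4* paralogue *Ndufa4l2*, the supercomplex factor *Cox7a2l* and the pseudogene *Cox6c-ps1*. A further 9 probe sets were left out because the annotation gives them several symbols, and *Cycs*, which encodes the electron carrier cytochrome c, has no member for that reason.

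Each of the 16 arrays measured 1 cornea of a male Wistar rat aged 12 to 16 weeks, with 4 arrays per group. In 3 groups, 2 sutures were placed in the temporal side of the cornea to bring on inflammation and, later, new vessels, and eyedrops were given 4 times daily for 2 days before the tissue was taken. The drops held goat IgG as the sham treatment (called an anti-IgG antibody in one of the labels), a rat-specific anti-*Vegf* antibody, or dexamethasone, a synthetic glucocorticoid, at 1 mg/ml. The antibody and the IgG were at 20 mg/ml by the labels, whereas the study's methods give micrograms in place of milligrams, and the fourth group was naïve corneas with no suture and no drops. The labels and the methods also differ on the tissue, which is the cornea without its scleral rim by the labels and the piece between the sutures and the temporal limbus by the methods. The values are log2 signals, so that a difference of 1 is a doubling, and all p-values measure the spread between these corneas.

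The respiratory chain carries electrons from NADH and succinate to oxygen through complexes I to IV in the inner mitochondrial membrane and pumps protons as it does so, and complex V, the ATP synthase, uses the proton gradient to make ATP. Most subunits are encoded in the nucleus, several complex IV subunits have a second isoform that is used mainly in heart and skeletal muscle, and transcription of the nuclear genes is driven in part by the factors NRF1, GABP (of the ETS family) and YY1. In the cornea, the chain serves the epithelium, the keratocytes of the stroma and the endothelium, whose ion pumping keeps the tissue clear.

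The promoters of 78 of the 87 genes could be matched in RefSeq (build GRCr8), and 4 are shown to set members with a factor's motif beside the member with the greatest fall. Each is the 250 bases before the gene's start, 5′ to 3′ on the coding strand, with a matched motif in capitals. *Ndufa12* (chr7:30658066-30658315, plus strand) holds an NRF1 motif, *Ndufs1* (chr9:72073606-72073855, minus strand) and *Uqcrq* (chr10:38089979-38090228, minus strand) hold the ETS motif, and *Cox7a1* (chr1:94568966-94569215, plus strand) holds none of the motifs searched.
Ndufa12: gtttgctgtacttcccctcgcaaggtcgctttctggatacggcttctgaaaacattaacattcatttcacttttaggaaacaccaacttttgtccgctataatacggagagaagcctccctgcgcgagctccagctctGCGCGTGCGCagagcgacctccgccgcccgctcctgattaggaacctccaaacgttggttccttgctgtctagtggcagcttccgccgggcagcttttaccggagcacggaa
Ndufs1: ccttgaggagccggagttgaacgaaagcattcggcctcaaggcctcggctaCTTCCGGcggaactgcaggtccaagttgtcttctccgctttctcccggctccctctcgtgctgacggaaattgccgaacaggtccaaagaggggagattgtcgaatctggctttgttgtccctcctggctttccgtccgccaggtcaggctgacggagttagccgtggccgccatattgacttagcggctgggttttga
Uqcrq: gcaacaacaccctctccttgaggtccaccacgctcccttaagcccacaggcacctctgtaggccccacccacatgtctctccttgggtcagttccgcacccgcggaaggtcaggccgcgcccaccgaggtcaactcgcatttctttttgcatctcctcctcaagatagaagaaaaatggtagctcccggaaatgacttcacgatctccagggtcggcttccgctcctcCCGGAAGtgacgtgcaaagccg
Cox7a1: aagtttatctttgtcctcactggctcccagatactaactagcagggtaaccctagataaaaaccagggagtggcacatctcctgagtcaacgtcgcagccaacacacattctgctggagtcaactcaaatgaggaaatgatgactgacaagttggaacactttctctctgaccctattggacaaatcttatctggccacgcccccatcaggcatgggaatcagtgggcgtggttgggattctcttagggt
The NRF1 motif, 10 letters of which the capitals of *Ndufa12* are a match on the opposite strand, was in 12 of the 78 member promoters (15.4%) and in 5.44% of 18999 promoters of protein-coding genes. The ETS motif, CCGGAAG, was in 21 (26.9%) against 9.52% of all, and the YY1 motif, AAGATGGCG, was in 1 (1.28%) against 0.784%. The glucocorticoid receptor motif, a pair of inverted half-sites, was in 0 member promoters and in 0.316% of all. No pair of these motifs overlapped in the promoters shown, and the matches describe letters in this window, not binding. The 4 promoters shown do not stand for all members, as motifs were also found in members that fell from naïve and missing from members that rose. *Ndufa1* and *Sdhb*, which fell in a treatment, held the ETS motif, and *Ndufs6*, which also fell, held the NRF1 motif. *Atp5mc3*, *Ndufa4*, *Sdhc*, *Cox5a*, *Ndufc1* and *Ndufa3*, which rose in a treatment, held none of the motifs searched. The NRF1 and ETS motifs hold a CpG, and member promoters had a median of 15 CpG against 9 over all protein-coding genes, whose part in these shares was not tested.

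The naïve arrays fell into 2 pairs by a technical measure, which bears on every comparison with naïve corneas. For beta-actin, the 5′ probe set minus the 3′ probe set was −1.69 and −1.75 on naïve arrays 1 and 2 but −0.87 and −0.82 on arrays 3 and 4. For *Gapdh* the difference was −0.43 on both of arrays 1 and 2, and −0.19 and −0.16 on the others. This measure falls where the labelled RNA is shorter. The members followed the same pairs. On naïve arrays 1 and 2 the median member lay 0.09 and 0.18 below the naïve mean on the log2 scale, and on naïve arrays 3 and 4 it lay 0.16 and 0.12 above it. Of the 87 genes, 76 were lower on both of arrays 1 and 2 than on both of arrays 3 and 4, a pattern seen in 36.6% of all genes, and 1 was higher (24.6% of all genes). The 12 arrays of sutured corneas had medians from −0.04 to 0.14 relative to the naïve mean, above naïve arrays 1 and 2 and below naïve array 3. Low beta-actin differences were also found on anti-*Vegf* array 2 (−1.19) and dexamethasone arrays 2 and 3 (−1.38 and −1.35), where the median member lay −0.02, 0.11 and 0.00 from the naïve mean. The part of RNA length in the members' levels was not tested.

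**Figure D1:**
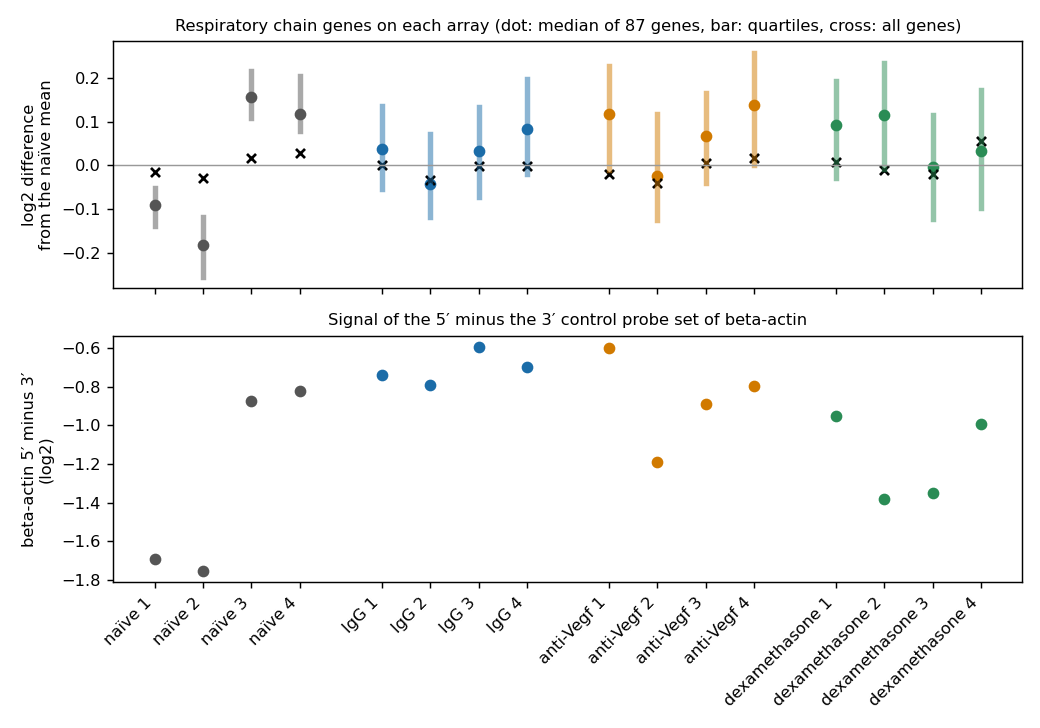
Upper panel: for each of the 16 arrays, the log2 difference of the 87 respiratory chain genes from the mean of the naïve arrays (dot, median; bar, quartiles) beside the median of all 14217 genes (cross). Lower panel: on the same arrays, the beta-actin 5′ minus 3′ difference (log2), where naïve arrays 1 and 2 are the lowest at −1.69 and −1.75 and also hold the lowest member medians.

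Few respiratory chain genes differed from naïve corneas by the study's limits, an adjusted p under 0.05 and a change of at least 1.5-fold (limma with Benjamini-Hochberg adjustment over all probe sets). In IgG corneas 1 of 87 genes was called, *Cox7a1*, which fell, while 11.3% of all genes were called. In anti-*Vegf* corneas *Cox7a1* was again the 1 gene called, against 12.8% of all genes. In dexamethasone-treated corneas the 1 gene called was *Cox6a2*, which rose, against 12.6% of all genes. With no limit on the fold, 9 genes passed in IgG corneas (4 rose and 5 fell), 14 in anti-*Vegf* corneas (11 rose and 3 fell) and 13 in dexamethasone corneas (9 rose and 4 fell). Of all genes, 29.2% passed this way in IgG corneas (13.4% higher and 15.7% lower), 30.6% in anti-*Vegf* corneas (14.7% and 15.9%) and 28.5% in dexamethasone corneas (16.1% and 12.4%). The groups did not overlap with the naïve arrays for 11, 10 and 14 of the 87 genes, against 31.3%, 31.3% and 28.3% of all genes.

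The small size of most changes was itself measured. The 95% interval of the change from naïve lay within 1.5-fold either way for 83 of the 87 genes in IgG corneas, 82 in anti-*Vegf* corneas and 80 in dexamethasone corneas, whereas 70.4%, 69.3% and 69.8% of all genes had so narrow an interval around no change. The median SD within groups was 0.124 for the members and 0.153 for all genes. The median change of the members was 0.03, 0.09 and 0.06 in the 3 treatments, and that of all genes was −0.01, −0.01 and 0.00. When each array was centred on 8 reference genes, the members' medians became −0.03, 0.00 and −0.02. That centring itself moved the median of all genes to −0.07, −0.10 and −0.07. Of the 8 reference genes, 2 had risen from naïve in IgG corneas, 2 in anti-*Vegf* corneas and 0 in dexamethasone corneas, with no fold limit. With cyclic loess in place of centring, the members' medians were 0.053, 0.065 and 0.058. The sign of the median shift thus rested on which scaling was used. In bulk tissue, fewer cells of a type and less RNA per cell cannot be told apart.

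**Figure D2:**
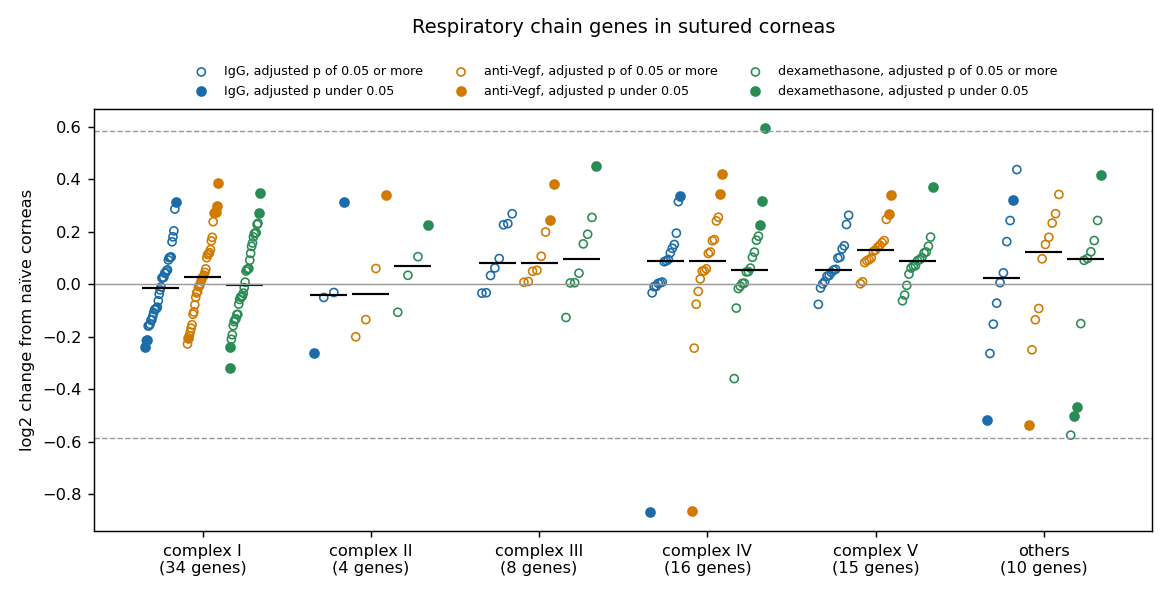
Log2 change from naïve corneas of each of the 87 genes, grouped by complex, in IgG, anti-*Vegf* and dexamethasone corneas (4 arrays per group). Filled points have a limma adjusted p under 0.05, black bars are medians and dashed lines mark 1.5-fold; *Cox7a1* at −0.87 and −0.86 and *Cox6a2* at 0.59 are the points beyond the lines that are filled.

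Which direction the members took depended on the naïve pair. Against naïve arrays 1 and 2 alone, 24 members rose and 0 fell in IgG corneas, where 30.2% of all genes passed (15.3% higher and 14.9% lower). In anti-*Vegf* corneas 29 rose and 0 fell, against 29.8% of all genes (15.4% and 14.4%), and in dexamethasone corneas 20 rose and 1 fell, against 27.0% (16.1% and 10.9%). Against naïve arrays 3 and 4 alone the directions turned. In IgG corneas 0 rose and 14 fell, against 20.9% of all genes (9.05% and 11.8%). In anti-*Vegf* corneas 1 rose and 10 fell, against 24.4% (10.9% and 13.4%), and in dexamethasone corneas 3 rose and 12 fell, against 23.8% (12.6% and 11.2%). The median change of the members moved from 0.17, 0.22 and 0.19 with the first pair to −0.10, −0.08 and −0.10 with the second. Of the genes that passed with all 4 naïve arrays, 0 of 9 in IgG corneas and 0 of 14 in anti-*Vegf* corneas passed with each pair alone. In dexamethasone corneas 3 of 13 did, namely *Cyc1*, *Atp5mc3* and *Atp5if1*. *Ndufaf1* in IgG corneas and *Ndufs1* in anti-*Vegf* corneas passed with neither pair. These fits were added after the data had been seen, and each holds 2 naïve arrays in place of 4.

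Single arrays also decided many of the calls made without a fold limit. Of the 36 calls against naïve corneas, 16 passed in all 16 fits that each left out 1 array, and all 36 kept their direction. Another 7 did not pass in most of these fits. In dexamethasone corneas *Sdhc* passed only without anti-*Vegf* array 2 or 4 or naïve array 3 (lost in 13 of 16 fits), *Ndufa4* was lost in 11, *Ndufv3* in 11 and *Cox6a1* in 9. In IgG corneas *Ndufs6* was lost in 12 and *Ndufaf1* in 10, each with any IgG array left out, and in anti-*Vegf* corneas *Cyc1* was lost in 12. The adjusted p over these fits reached 0.144 for *Sdhc*, 0.15 for *Ndufa4*, 0.134 for *Ndufv3*, 0.133 for *Cox6a1*, 0.139 for *Ndufs6*, 0.109 for *Ndufaf1* and 0.14 for *Cyc1*.

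The other 13 were lost in 1 to 5 fits. In IgG corneas *Ndufa4* was lost without IgG array 2, 3 or 4 or naïve array 1 or 2, *Ndufv3* without IgG array 1 or 3 or naïve array 1 or 2, and *Sdhb* without IgG array 2 or 4 or naïve array 3 or 4. In anti-*Vegf* corneas *Ndufv3*, *Ndufc1* and *Uqcrq* were lost without naïve array 1 or 2, *Ndufv3* also without anti-*Vegf* array 1, *Ndufc1* without anti-*Vegf* array 1, 2 or 4 and *Uqcrq* without anti-*Vegf* array 1, 3 or 4. There *Ndufb4* was lost without anti-*Vegf* array 3 or 4 or naïve array 1, 3 or 4, *Atp5mc3* without anti-*Vegf* array 1 or naïve array 3, *Ndufs1* without naïve array 3 and *Cox5a* without anti-*Vegf* array 4. In dexamethasone corneas *Ndufa3* was lost without dexamethasone array 2 or 4 or naïve array 1 or 2, *Ndufaf3* without dexamethasone array 2 or 3 or naïve array 3 or 4, and *Ndufb4* without dexamethasone array 4. The adjusted p over these fits was at most 0.118.

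Those 3 genes are described first. *Cyc1*, which encodes cytochrome c1, the haem protein of complex III that hands electrons to cytochrome c, had log2 signals of 10.18, 10.13, 10.44 and 10.31 in naïve corneas, 10.61, 10.35, 10.44 and 10.55 in IgG corneas, 10.61, 10.36, 10.48 and 10.58 in anti-*Vegf* corneas, and 10.65, 10.81, 10.67 and 10.71 in dexamethasone corneas. All 4 dexamethasone arrays lay above all 12 others. *Cyc1* rose by 0.45 ± 0.09 (SE) from naïve with dexamethasone (limma, adjusted p = 0.00133) and by 0.24 with anti-*Vegf* (adjusted p = 0.0483), and the difference in IgG corneas was 0.23 (adjusted p = 0.0648). Against naïve arrays 1 and 2 the dexamethasone change was 0.56, and against arrays 3 and 4 it was 0.34. The difference between dexamethasone and IgG was 0.22 (adjusted p = 0.12) and that between dexamethasone and anti-*Vegf* 0.21 (adjusted p = 0.176).

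Of the *Atp5mc* genes only *Atp5mc3* was read, because the probe sets of *Atp5mc1* and *Atp5mc2* carry several symbols and were left out. It is a gene for the c subunit of complex V, the membrane ring that turns as protons pass. Its log2 signals were 12.40, 12.46, 12.32 and 12.41 in naïve corneas, 12.59, 12.39, 12.39 and 12.61 in IgG corneas, 12.77, 12.54, 12.71 and 12.64 in anti-*Vegf* corneas and 12.66, 12.86, 12.81 and 12.73 in dexamethasone corneas. The anti-*Vegf* and dexamethasone arrays lay above every naïve array, while the IgG arrays overlapped with them. *Atp5mc3* rose by 0.37 ± 0.08 with dexamethasone (limma, adjusted p = 0.00262) and by 0.27 ± 0.08 with anti-*Vegf* (adjusted p = 0.0178), and the IgG difference was 0.10 (adjusted p = 0.387).

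*Atp5if1* encodes a small protein that keeps complex V from hydrolysing ATP when the proton gradient fails. Its signals were 11.91, 11.81, 12.30 and 12.31 in naïve corneas and 11.62, 11.65, 11.59 and 11.46 in dexamethasone corneas. It fell by 0.50 ± 0.11 with dexamethasone (limma, adjusted p = 0.00266), by 0.28 against naïve arrays 1 and 2 and by 0.73 against arrays 3 and 4. The IgG arrays, at 11.73 to 11.92, and the anti-*Vegf* arrays, at 11.71 to 11.89, lay above all dexamethasone arrays, but those differences of −0.24 and −0.25 did not pass (adjusted p = 0.179 and 0.178). On the gene's other 2 probe sets the dexamethasone change from naïve was −0.20 (adjusted p = 0.0623) and −0.29 (adjusted p = 0.0726).

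Complex I, the NADH dehydrogenase by which most electrons enter the chain, had 34 measured subunits, and its median change was −0.02, 0.03 and 0.00 in the IgG, anti-*Vegf* and dexamethasone groups. In IgG corneas 1 of the 34 rose and 2 fell, in anti-*Vegf* corneas 4 rose and 1 fell, and in dexamethasone corneas 2 rose and 2 fell. These are 8.82%, 14.7% and 11.8% of its subunits, against 29.2%, 30.6% and 28.5% of all genes. *Ndufv3*, an accessory subunit of the NADH-oxidising arm, rose in all 3 treatments, by 0.31, 0.30 and 0.27 ± 0.09 (limma, adjusted p = 0.0188, 0.0246 and 0.0457). Its signals were 9.91, 9.92, 10.17 and 10.06 in naïve corneas, against 10.16 to 10.50 in IgG, 10.27 to 10.39 in anti-*Vegf* and 10.16 to 10.41 in dexamethasone corneas. *Ndufb4*, an accessory subunit of the membrane arm, fell in all 3, by 0.24, 0.21 and 0.24 ± 0.07 (adjusted p = 0.0156, 0.0333 and 0.0166). Its naïve signals of 12.32, 12.21, 12.33 and 12.38 lay above every signal in the sutured corneas, which ran from 11.96 to 12.16. For *Ndufv3* the changes passed with naïve arrays 1 and 2 only, and for *Ndufb4* with naïve arrays 3 and 4 only.

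The other complex I subunits that passed did so in 1 treatment each. *Ndufs1*, the largest iron-sulfur subunit, rose by 0.28 ± 0.08 with anti-*Vegf* (limma, adjusted p = 0.016), from 9.67, 9.79, 9.59 and 9.81 to 9.97, 9.93, 10.03 and 10.03 without overlap. *Ndufa12*, whose promoter is shown with its NRF1 motif, rose by 0.38 ± 0.08 with anti-*Vegf* (adjusted p = 0.00237), from 10.24 to 10.56 in naïve corneas to 10.62 to 10.85. The accessory subunit *Ndufc1* rose by 0.28 with anti-*Vegf* (adjusted p = 0.0342) and *Ndufa3* by 0.35 with dexamethasone (adjusted p = 0.0252). *Ndufa1*, the member of complex I with the highest mean signal, fell by 0.32 with dexamethasone (adjusted p = 0.007) from 12.80, 12.70, 12.96 and 12.94 to 12.68, 12.52, 12.43 and 12.49. *Ndufs6* fell by 0.21 in IgG corneas (adjusted p = 0.0455). Of these, *Ndufs1* did not pass with either naïve pair, at adjusted p = 0.057 and 0.0521. *Ndufs7*, which holds an iron-sulfur cluster next to the ubiquinone site, had the largest spread within groups among the complex I subunits, a pooled SD of 0.26. Its signals were 9.40 and 9.33 on naïve arrays 1 and 2 and 10.02 and 10.03 on arrays 3 and 4, and it passed in no treatment.

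The 6 measured assembly factors of complex I, which build the complex but are not part of it, held *Ndufaf3*, which fell in all 3 treatments. Its signals were 8.61, 8.55, 9.07 and 8.97 in naïve corneas, 8.33, 8.18, 8.45 and 8.16 in IgG corneas, 8.64, 8.13, 8.01 and 8.26 in anti-*Vegf* corneas and 8.52, 8.27, 8.12 and 8.42 in dexamethasone corneas. Except for the first anti-*Vegf* array, every sutured cornea was below every naïve cornea. The falls were 0.52, 0.54 and 0.47 ± 0.14 (limma, adjusted p = 0.0135, 0.0107 and 0.0272). Against naïve arrays 3 and 4 they were 0.74, 0.76 and 0.69, and against arrays 1 and 2 the differences of −0.30, −0.32 and −0.25 did not pass. *Ndufaf1* rose by 0.32 in IgG corneas (adjusted p = 0.0445), and *Ndufaf4* rose by 0.42 ± 0.11 with dexamethasone (adjusted p = 0.00888), from 8.25 to 8.48 in naïve corneas to 8.66 to 8.94.

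Complex II, succinate dehydrogenase, is shared with the citric acid cycle and feeds electrons from succinate into the chain. Its 4 subunits did not move together. *Sdhc*, a membrane anchor, rose by 0.31, 0.34 and 0.23 ± 0.08 in IgG, anti-*Vegf* and dexamethasone corneas (limma, adjusted p = 0.00717, 0.00392 and 0.0461). Its naïve signals of 9.54, 9.42, 9.71 and 9.62 lay below all those of the sutured corneas, which ran from 9.74 to 10.01. *Sdhb*, the iron-sulfur subunit, fell by 0.26 ± 0.08 in IgG corneas (adjusted p = 0.0183), from 10.90, 10.87, 11.08 and 11.07 to 10.76, 10.65, 10.81 and 10.66. The other anchor, *Sdhd*, differed from naïve by −0.05, 0.06 and 0.10, and the catalytic flavoprotein *Sdha* by −0.03, −0.14 and 0.03, with no adjusted p under 0.05. As with complex I, the rises of *Sdhc* passed with naïve arrays 1 and 2 alone and the fall of *Sdhb* with arrays 3 and 4 alone.

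Complex III, which passes electrons from ubiquinol to cytochrome c, had 8 measured subunits and median changes of 0.08, 0.08 and 0.10. Besides *Cyc1*, *Uqcrq*, a small subunit near the ubiquinone-binding site, rose with anti-*Vegf* by 0.38 ± 0.13 (limma, adjusted p = 0.0369). Its naïve signals were 10.89, 10.60, 11.35 and 11.28, the anti-*Vegf* signals 11.42, 11.29, 11.49 and 11.44, and naïve array 3 overlapped with them. Against naïve arrays 1 and 2 the change was 0.67, and against arrays 3 and 4 it was 0.10 (adjusted p = 0.506). *Uqcr10*, the complex III member with the highest mean signal, differed by 0.06, 0.05 and 0.01. *Uqcrc2*, a core subunit, was measured by 2 probe sets with unlike results. On the probe set with the higher mean signal, the dexamethasone difference from naïve was −0.13 (adjusted p = 0.205), and on the other it was −0.42 ± 0.12 (adjusted p = 0.0214).

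Complex IV, cytochrome c oxidase, reduces oxygen to water, and it held both genes called beyond 1.5-fold. *Cox7a1* encodes the heart and skeletal muscle isoform of subunit VIIa. Its log2 signals were 9.30, 9.35, 9.75 and 9.81 in naïve corneas, 8.64, 8.38, 8.54 and 9.17 in IgG corneas, 9.04, 8.54, 8.52 and 8.65 in anti-*Vegf* corneas and 9.28, 9.83, 8.96 and 8.71 in dexamethasone corneas. Every IgG and anti-*Vegf* cornea was below every naïve cornea, and the dexamethasone corneas spread across both ranges. *Cox7a1* fell by 0.87 ± 0.22 in IgG corneas, a 1.83-fold fall, and by 0.86 ± 0.22 in anti-*Vegf* corneas (limma, adjusted p = 0.00773 and 0.00797). The dexamethasone difference from naïve was −0.36 (95% interval −0.83 to 0.11, adjusted p = 0.286). Dexamethasone minus IgG was 0.51 (95% interval 0.04 to 0.97, adjusted p = 0.162) and dexamethasone minus anti-*Vegf* 0.50 (adjusted p = 0.19), so a difference between treatments did not pass the test. With naïve arrays 1 and 2 alone the IgG and anti-*Vegf* differences were −0.64 and −0.63 and did not pass (adjusted p = 0.0848 and 0.0919), and with arrays 3 and 4 they were −1.10 and −1.09.

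*Cox6a2* encodes the striated muscle isoform of subunit VIa. Its signals were 6.15, 5.99, 6.13 and 6.43 in naïve corneas, 6.41, 6.39, 6.80 and 6.34 in IgG corneas, 6.09, 6.67, 6.47 and 6.43 in anti-*Vegf* corneas and 6.49, 6.88, 7.09 and 6.60 in dexamethasone corneas. All dexamethasone arrays lay above all naïve arrays, and those of the other treatments overlapped with both. *Cox6a2* rose by 0.59 ± 0.15 with dexamethasone, 1.51-fold (limma, adjusted p = 0.00862). The rise was 0.56 without dexamethasone array 2, 0.49 without dexamethasone array 3 and 0.58 without naïve array 3, all under 1.5-fold, and against naïve arrays 3 and 4 alone it was 0.49 and did not pass (adjusted p = 0.0844). The gene differed by 0.31 and 0.24 in IgG and anti-*Vegf* corneas (adjusted p = 0.137 and 0.266). The third muscle isoform measured, *Cox8b*, was under the low-signal limit and differed by 0.14, −0.03 and −0.01.

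Markers of striated muscle, which lies outside the cornea around the eye, were read beside these isoforms. Of 25 measured muscle markers (1 of them *Cox6a2*), 0 rose and 5 fell in IgG corneas, 0 rose and 5 fell in anti-*Vegf* corneas, and 2 rose and 2 fell in dexamethasone corneas. The shares that passed, 20.0%, 20.0% and 16.0%, stand beside 29.2%, 30.6% and 28.5% of all genes. Their mean signal ran from 5.52 to 5.71 on the naïve arrays, from 5.42 to 5.61 on the IgG arrays, from 5.44 to 5.52 on the anti-*Vegf* arrays and from 5.54 to 5.66 on the dexamethasone arrays. The 2 that rose with dexamethasone were *Cox6a2* itself (0.59) and the myosin *Myh7* (0.28), whose mean log2 signal was low, at 3.87. The median change of the 25 from naïve was −0.02, 0.00 and −0.05, with 12, 13 and 10 of them above 0. *Myh2*, a fast muscle myosin, had the largest fall in each treatment, at 1.13, 1.13 and 0.89. *Casq1*, the calcium store protein of skeletal muscle, fell by 0.65 in IgG and 0.60 in anti-*Vegf* corneas. Between dexamethasone and IgG, 3 of the 25 were higher with dexamethasone and 0 lower (12.0%, against 10.6% of all genes), with a median difference of 0.03 and 15 of the 25 above 0. The 3 were *Tnnc1* (1.22) and *Casq1* (0.37), which code for calcium-binding proteins, and the myosin *Myh1* (0.57). The part of muscle RNA in the *Cox7a1* and *Cox6a2* results was not tested. The poly-A controls, bacterial RNAs added before labelling, moved with the *Cox7a1* comparisons too. Their mean signal was higher than on the naïve arrays by 1.77 on the IgG arrays and by 1.59 on the anti-*Vegf* arrays (exact permutation test, two-sided, p = 0.029 for both) and by 0.06 on the dexamethasone arrays (p = 0.54, exact permutation test). The 5′ minus 3′ signal was higher on the IgG than on the naïve arrays by 0.58 for beta-actin and 0.23 for *Gapdh* (p = 0.029 for both, exact permutation test), and on the anti-*Vegf* arrays by 0.42 and 0.19 (p = 0.23 and 0.057, exact permutation test). By array, the poly-A signal ran from 4.733 to 4.939 on the naïve and from 4.816 to 5.149 on the dexamethasone arrays. It ran from 6.4 to 6.967 on the IgG and from 6.362 to 6.605 on the anti-*Vegf* arrays. What lies behind this split cannot be told apart from treatment where either antibody group is compared with naïve or dexamethasone corneas. The part of these technical measures in the changes of *Cox7a1* and the other members was not tested.

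The isoforms used in most tissues lay at or a little above the mean of the 4 naïve arrays. All 6 measured ones (*Cox4i1*, *Cox6a1*, *Cox6b1*, *Cox7b*, *Cox8a* and *Ndufa4*) had differences above 0 in IgG, anti-*Vegf* and dexamethasone corneas. So had 6942, 6965 and 7217 of all 14217 genes. The differences of the 6 ran from 0.01 to 0.34, from 0.05 to 0.42 and from 0.00 to 0.32, and 1, 1 and 2 of them passed. The sign can rest on the naïve pair. For *Cox4i1*, naïve arrays 3 and 4 (12.40 and 12.39) lay above the treatment means of 12.30, 12.34 and 12.29. For *Cox7b* they (12.73 and 12.83) lay above the IgG and dexamethasone means of 12.66 and 12.62. For *Cox6a1* they (11.89 and 11.83) lay below the dexamethasone mean of 12.00. *Ndufa4*, first counted with complex I and now placed in complex IV, rose by 0.34, 0.42 and 0.32 ± 0.11 (limma, adjusted p = 0.03, 0.00862 and 0.0447). Its signals were 11.44, 11.28, 11.77 and 11.78 in naïve corneas and 11.78 to 12.17 in the sutured corneas, and the rises against naïve arrays 3 and 4 alone, 0.13, 0.22 and 0.11, did not pass. *Cox6a1*, the counterpart of *Cox6a2* outside muscle, rose by 0.23 with dexamethasone (adjusted p = 0.043), and *Cox5a* by 0.34 with anti-*Vegf* (adjusted p = 0.014). The *Cox5a* probe set had a mean log2 signal of 7.82, against 11.69 for *Cox5b*. Another *Cox5a* probe set was left out because it carries several symbols. *Cox6c*, the complex IV member with the highest mean signal, differed by −0.01, 0.02 and 0.00. The lung isoform *Cox4i2* and the testis isoforms *Cox6b2* and *Cox7b2* were under the low-signal limit, with *Cox8b*, and 83 of the 87 genes were above it.

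**Figure D3:**
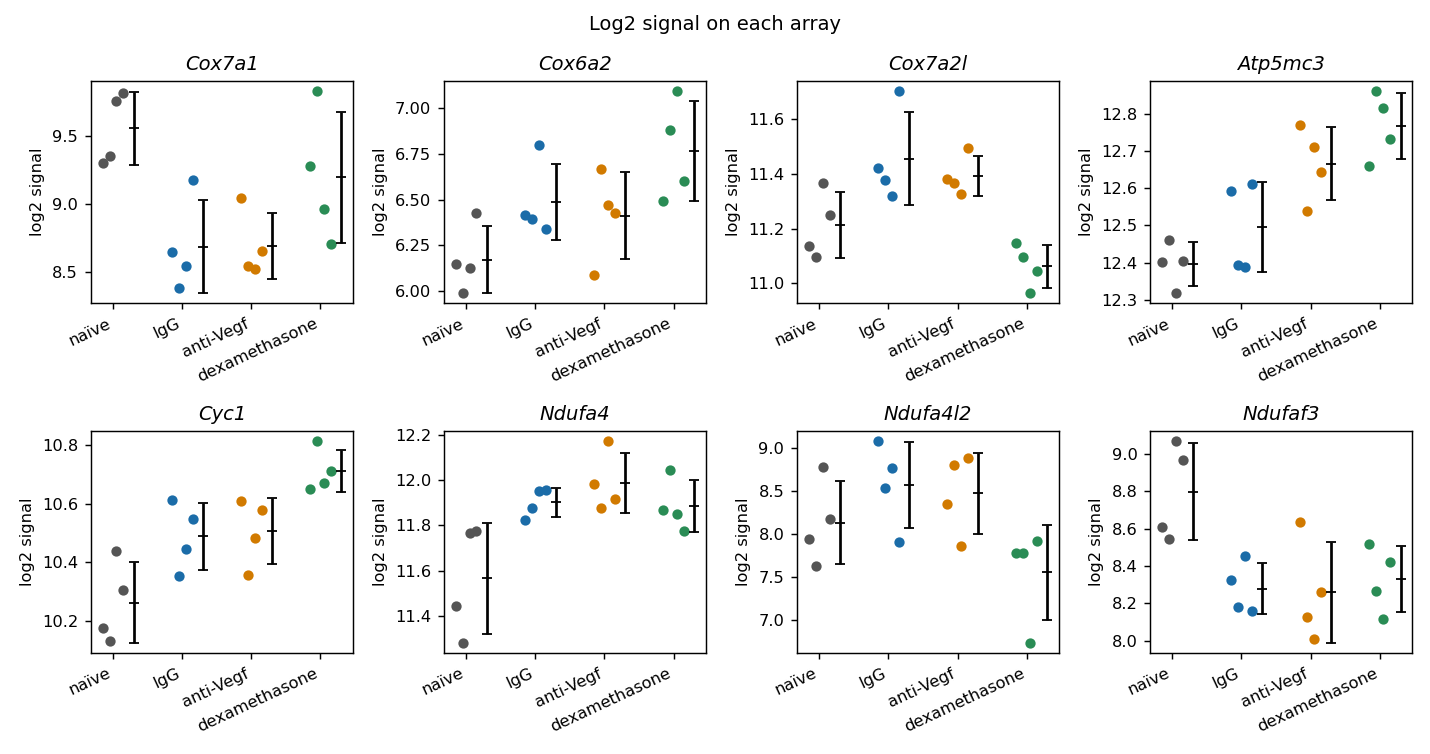
Log2 signal of 8 members on each of the 16 arrays (points), with the mean and SD of each group (bars, n = 4); the scales differ between panels and do not start at 0. *Cox7a1* is lower in IgG and anti-*Vegf* corneas, *Cyc1* and *Atp5mc3* have their highest group mean with dexamethasone, and the 4 dexamethasone arrays of *Cox7a2l* (10.96 to 11.15) lie below all IgG and anti-*Vegf* arrays.

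Complex V had 15 measured subunits, and its median changes of 0.05, 0.13 and 0.09 were read against all-gene medians of −0.01, −0.01 and 0.00. In anti-*Vegf* corneas all 15 had a difference above 0, as had 6965 of all 14217 genes. The mean signal of the 15 was 11.867 there, against 11.614 and 11.525 on naïve arrays 1 and 2 and 11.889 and 11.879 on arrays 3 and 4. Of the 15, 2 passed. These were *Atp5mc3* and *Atp5po*, the subunit that joins the catalytic head to the stalk, which rose by 0.34 ± 0.09 (limma, adjusted p = 0.0102) from 11.11, 11.04, 11.36 and 11.39 to 11.62, 11.35, 11.59 and 11.70. On the other *Atp5po* probe set the difference was −0.09 (adjusted p = 0.594), so the gene's direction rests on 1 probe set. In IgG corneas 0 of the 15 passed and in dexamethasone corneas 1 did, *Atp5mc3*. *Atp5pb*, the complex V member with the highest mean signal, differed by 0.01, 0.09 and 0.07.

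The treatments were then compared with each other, which the naïve arrays do not enter as values. With an adjusted p under 0.05 and no fold limit, 2 of 87 genes differed between dexamethasone and IgG, against 10.6% of all genes. Between dexamethasone and anti-*Vegf* 1 gene differed, against 7.13% of all genes. Between anti-*Vegf* and IgG 0 of 87 and 0 of all 14217 genes passed by limma, where 2 members (*Atp5mc3* and *Ndufa12*, both higher with anti-*Vegf*) and 6.63% of all genes had an unadjusted p under 0.05. The 95% interval lay within 1.5-fold either way for 84, 84 and 86 of the 87 genes in these comparisons, against 80.8%, 82.5% and 89.8% of all genes. The groups did not overlap for 9, 9 and 4 members, against 17.2%, 13.9% and 5.32% of all genes.

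*Cox7a2l*, also known as Scaf1, helps complex III and complex IV to join into supercomplexes, and it was the gene that set dexamethasone apart from both other treatments. Its log2 signals were 11.14, 11.10, 11.37 and 11.25 in naïve corneas, 11.42, 11.38, 11.32 and 11.70 in IgG corneas, 11.38, 11.37, 11.33 and 11.49 in anti-*Vegf* corneas and 11.15, 11.10, 10.96 and 11.04 in dexamethasone corneas. The dexamethasone arrays lay below every IgG and anti-*Vegf* array and overlapped with the naïve arrays. *Cox7a2l* was lower with dexamethasone than with IgG (log2 difference −0.39 ± 0.09, limma, adjusted p = 0.0112) and than with anti-*Vegf* (−0.33 ± 0.09, adjusted p = 0.0363). From naïve corneas the differences were 0.24 with IgG (adjusted p = 0.0544), 0.18 with anti-*Vegf* (adjusted p = 0.16) and −0.15 with dexamethasone (adjusted p = 0.269). The difference from anti-*Vegf* did not pass in the 7 fits that left out any of the anti-*Vegf* arrays or dexamethasone array 2, 3 or 4 (adjusted p from 0.0599 to 0.0992), whereas that from IgG passed in all 16 fits that each left out 1 array.

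*Atp5mc3*, whose signals are given above, was higher with dexamethasone than with IgG by 0.27 ± 0.08 without overlap (limma, adjusted p = 0.0393), and 0.10 higher than with anti-*Vegf* (adjusted p = 0.501). The difference from IgG did not pass when only the arrays of these groups were fitted (0.27, adjusted p = 0.09) after centring on reference genes (0.26, adjusted p = 0.0581), or in 6 of the 16 fits that each left out 1 array (adjusted p from 0.0506 to 0.115): without anti-*Vegf* array 4, IgG arrays 2 or 3, or dexamethasone arrays 2, 3 or 4. *Ndufa4l2*, a paralogue of *Ndufa4* that is known to be induced by hypoxia and to hold back complex I, had the widest spread of all members, with a pooled SD of 0.501. Its signals were 7.94, 7.64, 8.78 and 8.18 in naïve corneas, 9.08, 8.53, 8.76 and 7.91 in IgG corneas, 8.35, 8.80, 7.86 and 8.89 in anti-*Vegf* corneas and 7.78, 7.79, 6.74 and 7.92 in dexamethasone corneas. Dexamethasone minus IgG was −1.01 (95% interval −1.67 to −0.35, adjusted p = 0.051) and dexamethasone minus anti-*Vegf* −0.92 (95% interval −1.58 to −0.26, adjusted p = 0.091). The first passed in 9 of the alternative fits, with adjusted p from 0.0261 to 0.0489. On the second *Uqcrc2* probe set, dexamethasone was lower than IgG (−0.48, adjusted p = 0.022) and than anti-*Vegf* (−0.49, adjusted p = 0.0262), and on the first the differences were −0.09 and −0.13.

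**Figure D4:**
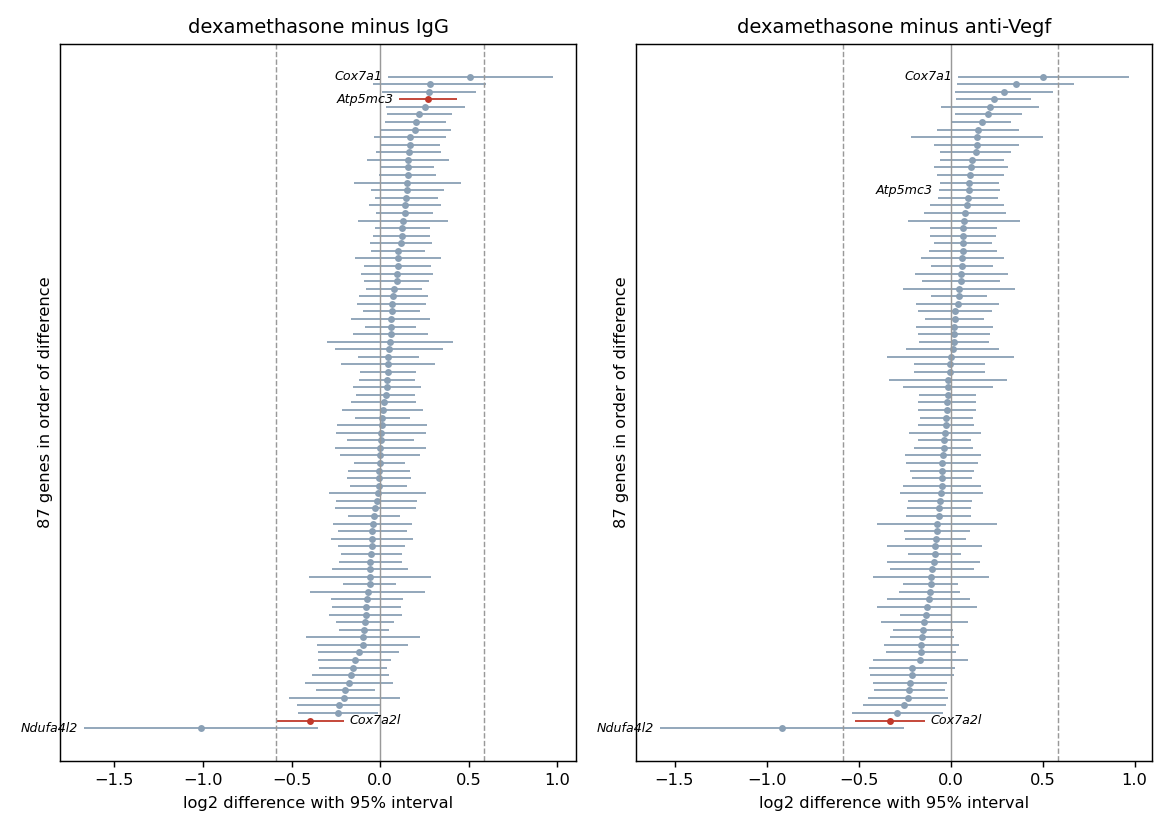
Log2 difference of each of the 87 genes between dexamethasone and IgG (left) and between dexamethasone and anti-*Vegf* (right), with 95% intervals from limma, in order of the difference. Red marks an adjusted p under 0.05, which *Cox7a2l* (−0.39 and −0.33) and *Atp5mc3* (0.27, left) reach, and dashed lines mark 1.5-fold; the interval of *Ndufa4l2* is the widest.

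Technical measures moved with these same comparisons. The poly-A controls had less signal in the dexamethasone group than in the IgG and anti-*Vegf* groups, with log2 differences of −1.71 and −1.53 (exact permutation test, two-sided, p = 0.029 for both, the smallest that 4 against 4 arrays allow). The *Gapdh* 5′ minus 3′ signal was also lower with dexamethasone than with IgG and anti-*Vegf*, by −0.31 and −0.27 (p = 0.029 for both, exact permutation test). For beta-actin these differences were −0.46 and −0.30 (p = 0.029 and 0.14, exact permutation test). The part of these measures in the differences of *Cox7a2l*, *Atp5mc3* and the other members was not tested.

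Genes that control the making of mitochondria showed single changes. Of 17 measured regulators, 2 rose and 5 fell in IgG corneas, 2 rose and 4 fell in anti-*Vegf* corneas, and 2 rose and 0 fell in dexamethasone corneas, with median changes of 0.00, 0.06 and −0.01. These are 41.2%, 35.3% and 11.8% of the regulators, against 29.2%, 30.6% and 28.5% of all genes. *Pprc1*, a coactivator of NRF1 that responds early to growth signals, rose by 0.81, 0.70 and 0.74. *Ppargc1a* fell by 0.37 in IgG and 0.40 in anti-*Vegf* corneas (limma, adjusted p = 0.0258 and 0.0175), and *Nfe2l2* fell by 0.34 in both. *Ppargc1b* went the other way, with rises of 0.58 in IgG and 0.40 in anti-*Vegf* corneas (limma, adjusted p = 0.00409 and 0.0354). Between dexamethasone and IgG, 4 regulators were higher with dexamethasone and 1 was lower (29.4%, against 10.6% of all genes). The lower one was *Polg*, the mitochondrial DNA polymerase (−0.53, limma, adjusted p = 0.0298). The higher ones were *Gabpb1*, a subunit of the ETS factor GABP (0.46, adjusted p = 0.00118), *Tfb1m* (0.43, adjusted p = 0.00571), *Tfam*, which packages mitochondrial DNA (0.34, adjusted p = 0.00886), and *Tfb2m*, which starts its transcription (0.29, adjusted p = 0.0221). From naïve corneas *Tfam* fell by 0.36 and *Gabpb1* by 0.34 with IgG. Between dexamethasone and anti-*Vegf*, *Gabpb1* was the 1 regulator that passed (0.35, adjusted p = 0.011; 5.88%, against 7.13% of all genes).

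Among 39 factors outside the member list that assemble the complexes, 1 rose and 7 fell in IgG corneas, 1 rose and 7 fell in anti-*Vegf* corneas, and 1 rose and 5 fell in dexamethasone corneas (20.5%, 20.5% and 15.4%). *Lrpprc*, which stabilises mitochondrial messenger RNA and is needed for complex IV, fell by 0.93, 0.72 and 0.79. Of 22 genes of the citric acid cycle and its regulation, 2 rose and 1 fell, 3 rose and 1 fell, and 6 rose and 0 fell (13.6%, 18.2% and 27.3%). *Dlst*, a subunit of the 2-oxoglutarate dehydrogenase complex, rose by 0.70, 0.59 and 0.31, and it was lower with dexamethasone than with IgG (−0.39, limma, adjusted p = 0.0138). Of 17 mitochondrial carriers, channels and creatine kinases, 4 rose and 1 fell, 2 rose and 0 fell, and 3 rose and 2 fell (29.4%, 11.8% and 29.4%). The shares of all genes were again 29.2%, 30.6% and 28.5%. The mitochondrial creatine kinase *Ckmt1* rose by 1.25, 1.13 and 0.78, and the proton carrier *Ucp2*, which is abundant in immune cells, rose by 0.72, 0.50 and 0.82.

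The genes that make and bring in mitochondrial proteins were read last among the mitochondrial lists. Of 73 proteins of the mitochondrial ribosome, which makes the subunits encoded in mitochondrial DNA, 2 rose and 5 fell in IgG corneas, 12 rose and 2 fell in anti-*Vegf* corneas, and 14 rose and 2 fell in dexamethasone corneas, with median changes of 0.04, 0.11 and 0.12. The shares that passed, 9.59%, 19.2% and 21.9%, were below those of all genes, 29.2%, 30.6% and 28.5%. *Mrps6* rose by 0.91, 0.87 and 0.68 and *Mrpl12* by 0.72 with dexamethasone, while *Mrps9* fell by 0.57, 0.47 and 0.56. Of 23 subunits of the import machinery of the inner and outer membranes, 1 rose and 1 fell, 5 rose and 0 fell, and 7 rose and 0 fell (8.7%, 21.7% and 30.4%). *Tomm40*, the pore of the outer membrane, rose by 0.66 and *Timm9*, a chaperone between the membranes, by 0.59 with dexamethasone, and *Tomm70*, an import receptor, was higher with dexamethasone than with IgG by 0.46 (limma, adjusted p = 0.00376).

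RNA markers of the tissue's cell types moved with the same comparisons, though they do not count cells. Of 15 leukocyte markers, 13, 10 and 10 rose in IgG, anti-*Vegf* and dexamethasone corneas and 0 fell. Their mean signal was 6.24 to 6.41 on the naïve arrays, 7.53 to 7.95 on the IgG arrays, 7.63 to 7.79 on the anti-*Vegf* arrays and 7.33 to 8.02 on the dexamethasone arrays. Of 11 keratocyte markers 5, 8 and 4 fell and 1 rose in each treatment, and of 7 corneal endothelium markers 4, 5 and 2 fell and 0, 1 and 0 rose. *Col8a2* is in both lists, so its falls in IgG and anti-*Vegf* corneas count in each. The keratocyte marker that rose was *Vim* in every treatment. The shares that passed were 86.7%, 66.7% and 66.7% of the leukocyte, 54.5%, 81.8% and 45.5% of the keratocyte and 57.1%, 85.7% and 28.6% of the endothelium markers, against 29.2%, 30.6% and 28.5% of all genes. The 13 corneal epithelium markers, of which 2 rose and 5 fell in each treatment (53.8%), had mean signals of 12.84 to 13.17 on all arrays, so the labelled tissue bore its markers throughout. That mean hides opposite moves, as the median change of the 13 was −0.13, −0.11 and −0.18. The 2 that rose were *Clu* and *Krt14*, while *Pax6*, *Aldh3a1*, *Dsg1* and *Tkt* fell in every treatment. The part of these cell types in the members' changes was not tested.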

How the data were processed

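Total RNA of each cornea was hybridised to 1 rat 3′ expression array, 16 arrays in all. The authors deposited log2 probe-set signals, normalized with RMA in Affymetrix Expression Console by the submitters' processing notes, and array medians ran from 6.55 to 6.61. For arrays, the number of arrays limits the precision. Probe sets were named from the platform annotation, in which 20826 have 1 symbol, 436 several and 9780 none, and 57 control probe sets were left out of the tests. A gene was read from its probe set with the highest mean log2 signal. Group means were fitted over all 31042 probe sets with limma 3.58.1 (R 4.3.3), and p-values were adjusted by Benjamini-Hochberg over all of them. A gene was called against naïve corneas at 1.5-fold or more with an adjusted p under 0.05, the limits in the study's methods, and calls between treatments had no fold limit. The comparisons with naïve corneas share the naïve arrays, and those between treatments share arrays too. SE and intervals (95%) are those of the moderated fit, with 15.9 degrees of freedom. A gene was above the low-signal limit where it passed the 40th percentile on at least 4 arrays.

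The members and lists were chosen with earlier results of these data known. The genes named were the called members, the member with the highest signal in each complex, the members of the isoform lists, members whose probe sets disagree in the sign of a called change, the 3 with the largest spread within groups, and at most 4 called genes each way from each list of related genes. Members that passed without the fold limit, *Sdha* and *Uqcrc2* among the others, were named after their values had been seen. Alternatives were a trend with robust moderation, array weights, fits of only the groups compared, centring on reference genes, cyclic loess, the low-signal filter, averaging the probe sets of each gene, and leaving out each array. Fits with only naïve arrays 1 and 2 or only 3 and 4 were added after seeing the data. On simulated data for dexamethasone against naïve corneas (31042 probe sets), the fit recovered 64.2% of changes of 1.5-fold, 88.1% of 2-fold and 100% of 4-fold, with 4 false calls. Recovery there meant an adjusted p under 0.05 in the right direction, with no fold limit. The simulated noise was independent between probe sets and held no difference between the naïve pairs. These rates therefore do not describe the calls made against naïve corneas. Exact permutation tests, tables and figures used Python 3.11.15, pandas 2.3.3, numpy 2.4.6, scipy 1.17.1 and matplotlib 3.10.9.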

Additional observations from a re-analysis of the deposited data

Results flagged for a closer look

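In 6 of 152 groups of 4 arrays tested, 1 array stood far from the other 3 by Dixon's criterion, which chance alone does for about 1 in 20 groups. These were *Cox5a* on dexamethasone array 4 (log2 signal 7.66, others 7.81 to 7.831), *Cox6a2* on IgG array 3 (6.796, others 6.342 to 6.413), *Ndufa4l2* on dexamethasone array 3 (6.738, others 7.783 to 7.921), *Ndufb4* on anti-*Vegf* array 3 (11.992, others 12.128 to 12.154), *Ndufs7* on dexamethasone array 3 (9.573, others 9.923 to 9.975) and *Uqcrq* on IgG array 4 (11.41, others 11.248 to 11.272). The change from naïve corneas differed between treatments for 2 genes by the test of the difference itself. *Atp5mc3* differed between dexamethasone and IgG by 0.2703 (limma, adjusted p = 0.0393), and *Cox7a2l* differed between dexamethasone and IgG by −0.393 (adjusted p = 0.0112) and between dexamethasone and anti-*Vegf* by −0.3291 (adjusted p = 0.0363).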

How the results depend on the processing

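Over the comparisons of the genes named, 1057 alternative values kept their direction and side of the threshold, 208 kept the direction but no longer passed, 16 newly passed and 1 turned. The one that turned was *Ndufa4l2* in anti-*Vegf* against naïve corneas, −0.0037 with naïve arrays 3 and 4 alone. With no fold limit, 9, 14 and 13 members passed in IgG, anti-*Vegf* and dexamethasone corneas against naïve. After centring on reference genes, 2 were called in anti-*Vegf* and 0 in dexamethasone corneas. With naïve arrays 1 and 2 alone, 0 were called in IgG and 2 in anti-*Vegf* corneas, and with arrays 3 and 4 alone 2 in each of the 3 treatments. Between dexamethasone and IgG, 1 gene passed when only those groups were fitted, 1 after centring on reference genes, 4 with probe sets averaged per gene, 0 with a limit of 1.5-fold and 1 among subunits only. Between dexamethasone and anti-*Vegf* the same alternatives gave 0 when only those groups were fitted, 2 with probe sets averaged, 0 with the fold limit and 0 among subunits, and 2 were called when probe sets stood in place of genes. Leaving out each array in turn gave, against naïve, 1 to 2 calls with IgG, 1 to 2 with anti-*Vegf* and 0 to 1 with dexamethasone, 1 to 3 between dexamethasone and IgG, 0 to 1 between dexamethasone and anti-*Vegf* and 0 to 0 between anti-*Vegf* and IgG. The 0 against naïve came without dexamethasone array 2 or 3 or naïve array 3. No paired analysis was possible because the groups compared share no replicate numbers that tie their animals. Signals of the 4 genes under the low-signal limit carry little information on change.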
